A study of Mus musculus with 6 samples.

Results

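The galectin genes examined here are Lgals1, Lgals3, Lgals8 and Lgals9, together with Lgals3bp, which encodes a secreted glycoprotein that binds galectin-3 and is not itself a galectin. Their peaks were chosen by name, as every row of the table of all peaks whose nearest gene is one of these 5. Of the 22188 peaks in that table, 6 were assigned to 3 of the genes, with 3 peaks at Lgals3, 2 at Lgals1 and 1 at Lgals8. No row was assigned to Lgals9 or to Lgals3bp. Lgals3, described as a target gene of KLF3, was set beside its relatives.

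The study mapped where the transcription factor KLF3 and 2 of its mutants sit on chromatin, by chromatin immunoprecipitation and sequencing (ChIP-seq) with an anti-V5 antibody. All of the cells were Klf3-/- murine embryonic fibroblasts (MEFs) of strain C57BL/6, which lack endogenous KLF3, and all were grown in the same medium. A retrovirus was used to give them V5-tagged KLF3, V5-tagged ΔDL, whose contact with the corepressor CtBP is broken by a mutated motif, or V5-tagged DBD, which keeps the zinc fingers and a putative nuclear localization signal. Each construct was carried by a stable clone selected with puromycin, so that the construct and the clone cannot be told apart, and each was assayed in 2 replicates with paired input. The replicates were called alone, whereas the peak heights combine both replicates of a construct. The amount of each construct in its clone was not analysed here.

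Galectins are lectins that bind β-galactosides on glycoproteins and glycolipids. They are made in the cytoplasm and leave the cell without a signal peptide. Galectin-1 and galectin-3, the products of Lgals1 and Lgals3, are abundant in fibroblasts and cross-link glycans at the cell surface and in the extracellular matrix. Galectin-8 and galectin-9 carry a pair of carbohydrate-binding domains joined by a linker, and galectin-8 also binds glycans exposed on damaged endosomes. KLF3 is a member of the Krüppel-like family, whose zinc fingers bind CACCC-box sequences, and it represses transcription through CtBP.

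The centre of the promoter peak and of the highest KLF3 peak of each gene is shown before the values, since the comparison of the genes turns on them. Each is 241 bases of the plus strand of mm9, except at the Lgals3 promoter, where the 172 bases from the start of the peak to the GENCODE exons within it and a separate stretch of 30 bases around the 2 hexamers nearest the peak centre are given. The capitals mark whole matches on either strand to the letters ACACCC, to their variant ACGCCC, to the letters CCACCC or to their variant CCGCCC, here called CACCC-type hexamers. The Lgals3 promoter sequence is chr14:47993316-47993487, its site is chr14:47993521-47993550, the Lgals3 intron 1 sequence is chr14:47994181-47994421, the Lgals1 promoter sequence is chr15:78756576-78756816, the Lgals1 intron 2 sequence is chr15:78758433-78758673 and the Lgals8 intron 1 sequence is chr13:12552752-12552992.
Lgals3 promoter: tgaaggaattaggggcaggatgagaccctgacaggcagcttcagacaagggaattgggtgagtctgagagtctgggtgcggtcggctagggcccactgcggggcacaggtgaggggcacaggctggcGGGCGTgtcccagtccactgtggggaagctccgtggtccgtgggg
Lgals3 promoter site: tgctgccCCGCCCtgggaGGGCGGgcccgg
Lgals3 intron 1: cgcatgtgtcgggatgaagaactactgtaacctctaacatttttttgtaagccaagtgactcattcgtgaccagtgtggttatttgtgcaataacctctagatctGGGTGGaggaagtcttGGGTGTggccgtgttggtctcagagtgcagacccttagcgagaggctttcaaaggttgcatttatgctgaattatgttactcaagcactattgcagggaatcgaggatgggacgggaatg
Lgals1 promoter: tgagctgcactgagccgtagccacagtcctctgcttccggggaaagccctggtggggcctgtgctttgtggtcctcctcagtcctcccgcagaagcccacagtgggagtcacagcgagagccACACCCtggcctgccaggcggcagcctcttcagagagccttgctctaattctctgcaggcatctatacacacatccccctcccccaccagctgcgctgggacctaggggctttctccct
Lgals1 intron 2: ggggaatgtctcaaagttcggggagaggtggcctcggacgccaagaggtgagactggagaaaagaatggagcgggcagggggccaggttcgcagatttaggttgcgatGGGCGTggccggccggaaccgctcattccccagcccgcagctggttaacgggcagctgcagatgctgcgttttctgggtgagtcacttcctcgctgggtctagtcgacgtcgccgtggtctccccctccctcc
Lgals8 intron 1: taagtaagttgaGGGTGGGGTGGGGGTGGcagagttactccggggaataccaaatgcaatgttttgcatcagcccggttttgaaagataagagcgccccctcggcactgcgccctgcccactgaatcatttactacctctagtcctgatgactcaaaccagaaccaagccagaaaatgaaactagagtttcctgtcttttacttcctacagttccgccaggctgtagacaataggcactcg
The Lgals3 promoter peak held 5 hexamers, of which 3 are shown, 1 at -73 bp and the others at 12 and 23 bp from the peak centre. Lgals3 intron 1 shows 2 of its 4 hexamers, at -15 and 1 bp. The Lgals1 promoter and Lgals1 intron 2 held 1 each, at 2 bp and at -12 bp from the peak centre. The left end of the Lgals1 intron 2 sequence lies in a coding exon of a GENCODE transcript, although the authors' annotation places the peak in an intron. The 3 hexamers shown for Lgals8 lie together at the left end, starting between -108 and -97 bp from the centre, and adjoin or overlap each other.

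Over the whole 401 bases of a peak, all 6 galectin peaks held at least 1 CACCC-type hexamer, beside 60.02% of all peaks and 76.3% of those listed for KLF3. The number of matches was 5 at the Lgals3 promoter, 4 at Lgals3 intron 1, 3 at the peak upstream of Lgals3, 1 at the Lgals1 promoter, 1 at Lgals1 intron 2 and 5 at Lgals8 intron 1. In the central 100 bp, 5 of the 6 peaks kept a match and Lgals8 intron 1 did not, beside 57.5% of the KLF3-listed peaks. The Lgals1 promoter was poor in these letters for a promoter. KLF3-listed promoter peaks had a median of 4 matches, and only 2.40% of them had fewer than the 1 found there. In a window of the same length from 400 to 800 bp to the right of the centre, 4 of the 6 loci held a match. The share in that window was 46.2% for all peaks and 53.1% for the KLF3-listed peaks.

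The other short sequences searched were those of AP-1, RUNX, ETS and CCAAT factors. All 4 peaks outside promoters contained an AP-1 sequence, TGACTCA or TGAGTCA in either orientation, and neither promoter peak did. The share with an AP-1 sequence was 29.3% of the KLF3-listed intron peaks, 29.8% of the intergenic peaks and 4.81% of the promoter peaks. The AP-1 letters lay 66 bp from the centre of the Lgals1 intron 2 peak, -64 bp from that of Lgals3 intron 1, -34 bp from that of the peak upstream of Lgals3 and 28 bp from that of Lgals8 intron 1. Lgals3 intron 1 alone held a RUNX sequence, TGTGGTT, which 14.01% of the KLF3-listed intron peaks contained. The Lgals1 promoter alone held an ETS sequence, CCGGAAG, and the 2 promoter peaks were the only galectin peaks with CCAAT. Of all peaks, 10.3% held the RUNX letters, 6.16% held the ETS letters and 44.1% held CCAAT, on either strand. The ETS letters were in 22.3% of the KLF3-listed promoter peaks, and CCAAT was in 40.8% of the promoter, 40.7% of the intron and 43.4% of the intergenic peaks listed for KLF3, so that neither sets the galectin promoters apart. A match is a description of the letters and does not show that a factor was bound.

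The RefSeq promoters, which are 300 bases that include the start, on GRCm38.p6, were at hand for 4 of the 5 genes. Promoters of Lgals3 and Lgals8 held 3 CACCC-type hexamers each, that of Lgals9 held 2 and that of Lgals3bp held none. Of all 32851 RefSeq promoters in that set, 62.2% contained at least 1. Lgals9 had these letters in its promoter and no peak in any list.

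At Lgals3, which encodes galectin-3, KLF3 occupied the promoter, the intron that follows it and a site far upstream. The promoter peak, chr14:47993316-47993716, lay 19 bp before the transcription start site (TSS) of the annotated transcript. The intron peak, chr14:47994101-47994501, was in intron 1 of 5 and 766 bp after the TSS. The third peak, chr14:47973772-47974172, was intergenic and 19563 bp before the TSS. Peak heights are given as the authors' tags in 400 bp normalized to 100 M tags, on the log2 scale or converted back to normalized tags, and the intervals are 95% intervals of the tag counts, which cover counting error only.

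In the heights that combine both replicates, the Lgals3 intron 1 peak was the highest of the gene with every construct. Its counting intervals overlapped those of the upstream peak with each construct. In ΔDL replicate 2 the upstream peak scored higher, and in KLF3 replicate 1 the scores of these peaks were equal. The intron 1 peak had 609 normalized tags in KLF3, 676 in ΔDL and 75.6 in DBD. KLF3 replicates 1 and 2 called it with peak scores of 751.3 and 420.3 tags per 100 M, and ΔDL replicates 1 and 2 called it with 453.1 and 459.2. The scores of the KLF3 replicates differed by more from each other than from those of ΔDL, and the ΔDL scores lay between them. No DBD replicate called a peak there. The height in ΔDL differed from KLF3 by 0.15 on the log2 scale (interval -0.27 to 0.55), and that in DBD by -3.01 (interval -4.18 to -2.26).

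The Lgals3 promoter peak was lower than the intron peak with every construct. It had 413 normalized tags with KLF3, 232 with ΔDL and 19.8 with DBD. KLF3 replicates 1 and 2 called it with scores of 219.9 and 315.2, which rest on 12 and 57 tags. Neither replicate of ΔDL or of DBD called it, although 27 ΔDL tags fell in its 400 bp. In each KLF3 replicate the intron scored higher than the promoter, by 3.42 times in replicate 1 and by 1.33 times in replicate 2. The ΔDL height was -0.83 from that of KLF3 (interval -1.52 to -0.22), the lowest ΔDL difference among the galectin peaks. The DBD height was -4.38 from that of KLF3 (interval -6.76 to -2.87), which was the lowest DBD difference and rests on 3 tags in DBD.

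In the heights that combine both replicates, the peak upstream of Lgals3 was about as high in ΔDL as in KLF3 before any further scaling. It had 519 normalized tags with KLF3, 530 with ΔDL and 64.0 with DBD. KLF3 replicates 1 and 2 called it with scores of 751.3 and 359.4, and ΔDL replicate 2 with 498.3, whereas ΔDL replicate 1 and the DBD replicates did not. Since a listing required both replicates, the table lists this site for KLF3 alone. At the score of replicate 2, 8.80 tags would be found in ΔDL replicate 1, where the lowest called peak had 4. The difference from KLF3 was 0.03 for ΔDL (interval -0.44 to 0.48) and -3.02 for DBD (interval -4.14 to -2.12).

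At Lgals1, which encodes galectin-1, the arrangement was like that at Lgals3, with a promoter peak and an intron peak and with the intron the higher. The promoter peak, chr15:78756496-78756896, was 459 bp before the TSS, and the intron peak, chr15:78758353-78758753, was in intron 2 of 3 and 1398 bp after the TSS. The Lgals1 intron 2 peak was the highest galectin peak for KLF3, with 739 normalized tags, beside 662 for ΔDL and 103 for DBD. KLF3 replicates 1 and 2 scored 568.1 and 541.9, and ΔDL replicates 1 and 2 scored 623.0 and 400.6, so that the KLF3 scores lay between those of ΔDL. The differences from KLF3 were -0.16 for ΔDL (interval -0.57 to 0.23) and -2.85 for DBD (interval -3.73 to -2.15).

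The Lgals1 promoter had 666 normalized tags with KLF3, 434 with ΔDL and 34.3 with DBD. KLF3 replicates 1 and 2 called it with scores of 403.1 and 359.4, and ΔDL replicate 2 with 205.2, below both. ΔDL replicate 1 did not call it, and at the score of replicate 2 it would hold 3.62 tags, fewer than the 4 of its lowest called peak. The peak of ΔDL replicate 2 was centred 347 bp before the TSS, whereas those of KLF3 replicates 1 and 2 were centred 443 and 464 bp before it. A further ΔDL replicate 2 peak with the same score of 205.2 lay 22 bp after the TSS and is not in the table. The height differed from KLF3 by -0.62 in ΔDL (interval -1.11 to -0.16) and by -4.28 in DBD (interval -6.06 to -3.16). In KLF3 the intron scored 1.41 times the promoter in replicate 1 and 1.51 times in replicate 2.

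At Lgals8, which encodes galectin-8, occupancy was low. The peak, chr13:12552672-12553072, was in intron 1 of 9 and 1133 bp after the TSS. It had 174 normalized tags with KLF3, 138 with ΔDL and 31.1 with DBD. KLF3 replicates 1 and 2 called it with scores of 164.9 and 105.1 and ΔDL replicate 2 with 87.9, and the other lists did not. The score of ΔDL replicate 2 would be 1.55 tags in replicate 1, below the 4 needed there. The difference from KLF3 was -0.33 in ΔDL (interval -1.28 to 0.53) and -2.48 in DBD (interval -4.73 to -1.31), the smallest difference in DBD among the 6 peaks.

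**Figure D1:**
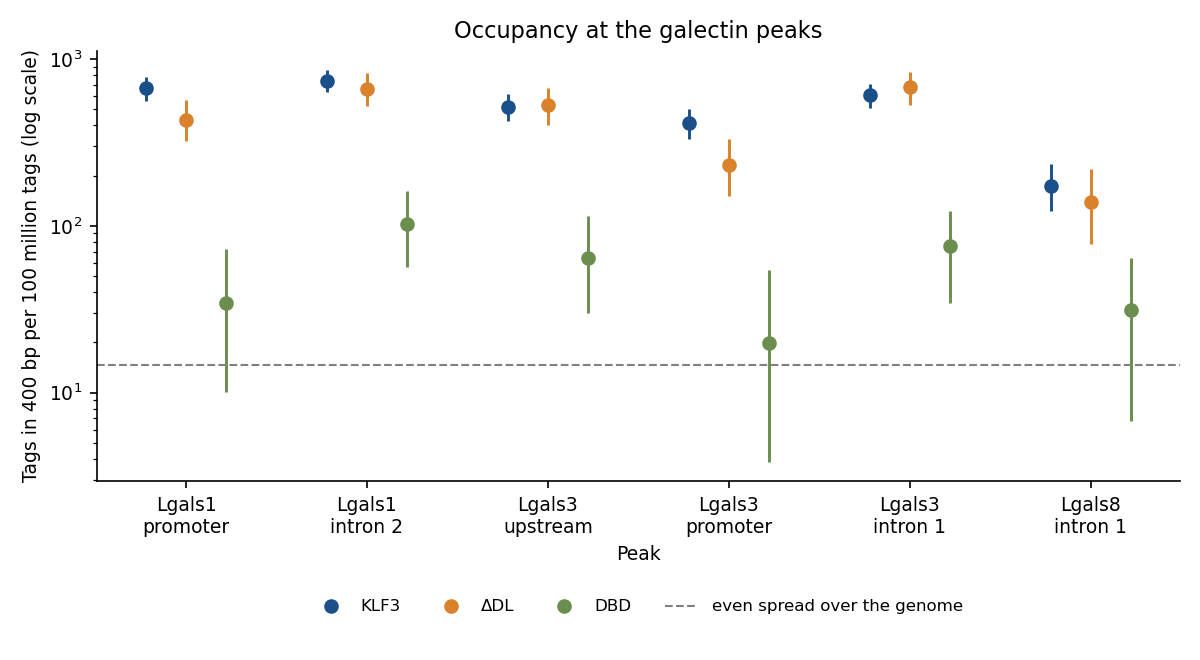
Peak heights at the 6 galectin peaks, as tags in 400 bp per 100 M tags on a log scale, for KLF3, ΔDL and DBD with both replicates combined. Bars are 95% counting intervals and the dashed line is 14.7 tags, the number that an even spread of tags over the genome would give; on these heights as deposited KLF3 and ΔDL lie close together at the intron and upstream peaks, ΔDL is lower at the 2 promoters, and DBD is lowest throughout.

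The galectin peaks with the greatest KLF3 height were high among all KLF3 peaks. Lgals1 intron 2 exceeded 96.3% of the 14115 KLF3-listed peaks, the Lgals1 promoter 94.6%, Lgals3 intron 1 93.0%, the peak upstream of Lgals3 88.9%, the Lgals3 promoter 80.3% and Lgals8 intron 1 28.2%. In the order of KLF3 heights, the counting intervals of each neighbouring pair overlapped except those of the Lgals3 promoter and Lgals8 intron 1. For ΔDL the order was Lgals3 intron 1, Lgals1 intron 2, the upstream peak, the Lgals1 promoter, the Lgals3 promoter and Lgals8 intron 1, and the intervals of all neighbouring pairs overlapped. Having several peaks was not rare, since 44.8% of the 10750 genes named in the table had at least 2 rows and 23.2% had at least 3.

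**Figure D2:**
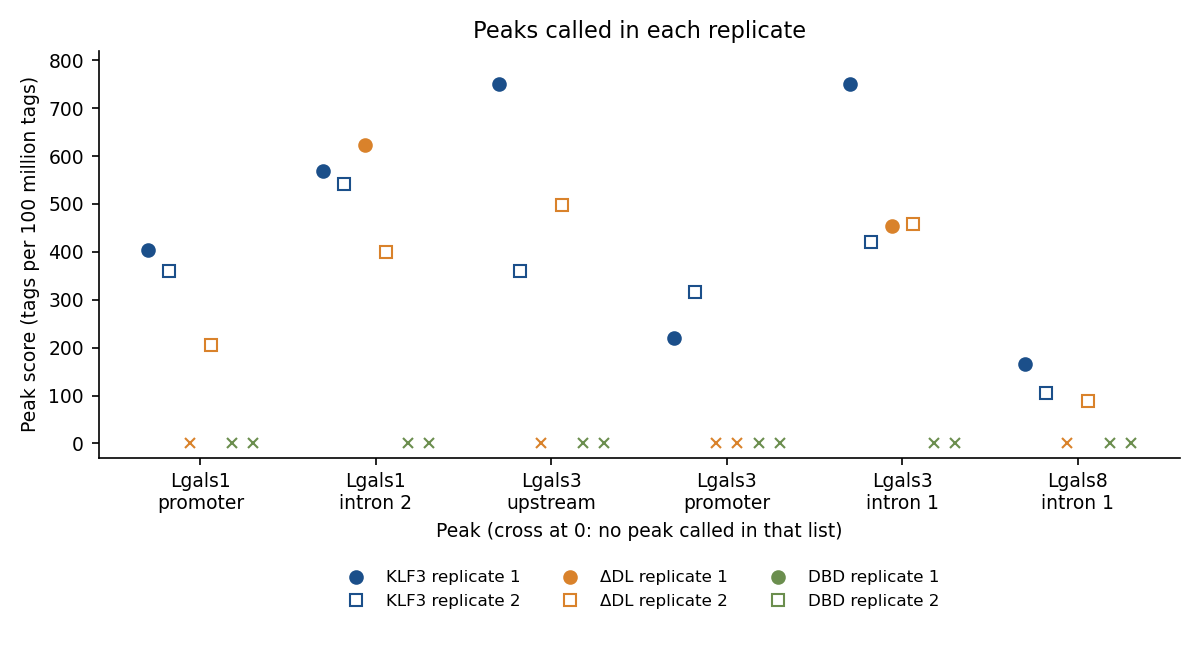
Peak scores in tags per 100 M tags for each galectin peak in the 6 replicate lists, with a cross at 0 where a list has no peak. All 6 peaks were called in both KLF3 replicates, only Lgals1 intron 2 and Lgals3 intron 1 in both ΔDL replicates, and none in a DBD replicate.

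All 6 galectin peaks were listed for KLF3, which means that both of its replicates called them. Lgals3 intron 1 and Lgals1 intron 2 were listed for ΔDL too, which is 2 of 6 and close to the 32.9% of the KLF3-listed peaks. None of the 6 was listed for DBD, beside 17.0% of the KLF3-listed peaks. ΔDL replicate 2 called 5 of the 6 peaks and replicate 1 called 2 of them. The lists of the ΔDL replicates rest on 1.77 M and 10.2 M tags, those of KLF3 on 5.46 M and 18.1 M and those of DBD on 7.81 M and 8.38 M. These totals are implied by the scores and are below the mapped reads that the paper reports for each library. Replicate 2 had more tags in KLF3 and in ΔDL, so it would weigh more in heights that pool the replicates. With 2 replicates against 2, an exact two-sided permutation test of the scores could not go below p = 0.333, and none was made.

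Compared with KLF3, no galectin peak was at least 2-fold lower in ΔDL and none was at least 2-fold higher. Among all peaks, 14.8% were at least 2-fold lower and 28.8% at least 2-fold higher, and among the KLF3-listed peaks 23.3% were at least 2-fold lower. The 28.8% includes peaks listed for a mutant and not for KLF3, whereas all 6 galectin peaks were listed for KLF3. The share at least 2-fold higher among the KLF3-listed peaks was not counted. The median difference of the 6 peaks was -0.24, beside 0.42 over all peaks and -0.35 over the KLF3-listed peaks. This count depends on the scaling. When the medians of the 2334 peaks listed for all 3 constructs were set equal, which moved ΔDL by -1.06 and DBD by -0.42 on the log2 scale, 5 of the 6 galectin peaks were at least 2-fold lower in ΔDL, beside 42.9% of all peaks and 66.2% of the KLF3-listed peaks, and only Lgals3 intron 1 was not, with -0.91.

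Relative to other KLF3-listed peaks of the same kind, the galectin peaks were in the middle of the range for ΔDL. The ΔDL difference of the Lgals3 promoter was above that of 44.0% of the KLF3-listed promoter peaks and that of the Lgals1 promoter above 55.2%, where the median was -0.71. Lgals3 intron 1 was above 64.9% of the KLF3-listed intron peaks, Lgals1 intron 2 above 52.6% and Lgals8 intron 1 above 45.6%, where the median was -0.24. The upstream peak of Lgals3 was above 49.9% of the intergenic peaks, whose median was 0.04.

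All 6 galectin peaks were at least 2-fold lower in DBD than in KLF3, and none was higher. The share at least 2-fold lower was 52.6% over all peaks and 79.2% over the KLF3-listed peaks, and 3.27% of all peaks, listed for KLF3 or not, were at least 2-fold higher. Every KLF3 height was between 5.58 and 20.8 times the DBD height, the former at Lgals8 intron 1 and the latter at the Lgals3 promoter. The median difference over the 6 peaks was -3.02, beside -2.54 over the KLF3-listed peaks. The lowest values were at the promoters, and the DBD differences of the Lgals3 and Lgals1 promoters were above those of 8.50% and 9.88% of the KLF3-listed promoter peaks, whose median was -3.02. These ranks rest on 3 and 5 DBD tags. The counting interval of the Lgals3 promoter (-6.76 to -2.87) included that median, and that of the Lgals1 promoter (-6.06 to -3.16) did not. In height, the KLF3-listed promoter peaks had medians of 324 normalized tags with KLF3 and 42.2 with DBD. The Lgals1 promoter had 666 and 34.3, and the Lgals3 promoter 413 and 19.8. The DBD counting intervals of these 2 promoters included 42.2.

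The DBD signal was not told apart from even coverage at 3 of the peaks. An even spread of tags over the genome would give 14.7 normalized tags in 400 bp. The DBD interval included this value at the Lgals3 promoter (3 tags, 3.86 to 54.7 normalized tags), at the Lgals1 promoter (5 tags, 10.1 to 72.7) and at Lgals8 intron 1 (4 tags, 6.79 to 63.8). It lay above it at Lgals1 intron 2 (16 tags, 57.0 to 162), at Lgals3 intron 1 (11 tags, 34.2 to 123) and at the upstream peak (10 tags, 29.9 to 115). Heights of the input libraries are not part of these values.

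**Figure D3:**
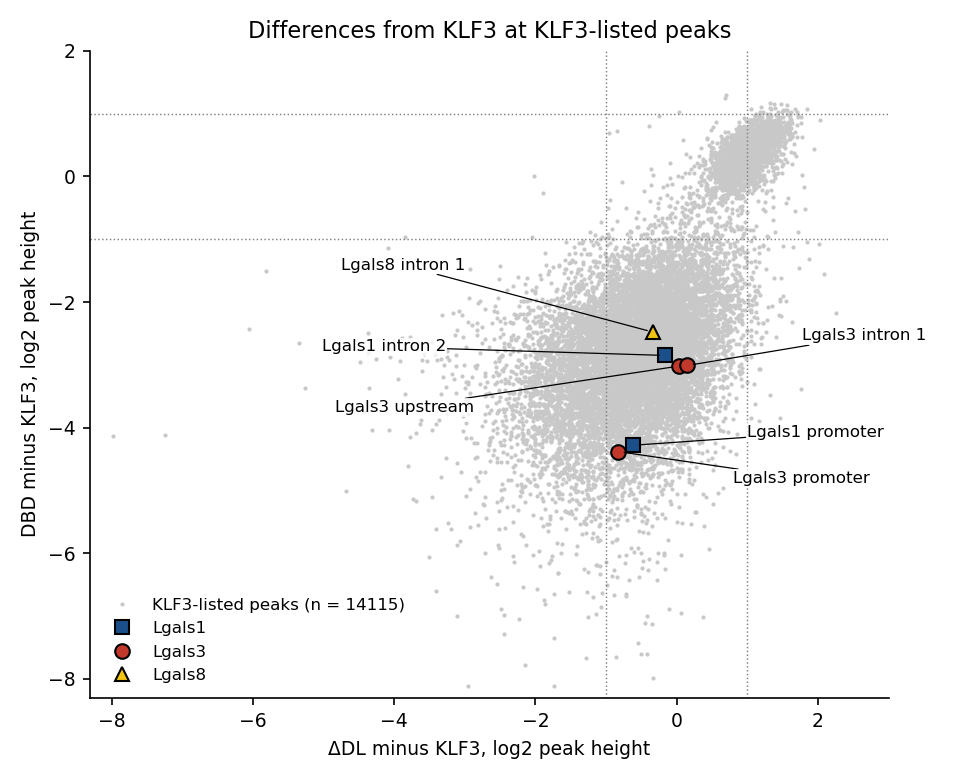
ΔDL minus KLF3 (horizontal) and DBD minus KLF3 (vertical) log2 peak height at the 14115 KLF3-listed peaks (grey), with the galectin peaks in colour and dotted lines at 2-fold. On the heights as deposited, all 6 galectin peaks lie within 2-fold of KLF3 in ΔDL, where equal medians put 5 of them past it, and below 2-fold in DBD, and the 2 promoters lie together at the lower left of the other 4.

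Within Lgals3 and Lgals1, the difference of each mutant from KLF3 was lower at the promoter than in the intron. This contrast does not depend on how the constructs are scaled, and it was chosen after the values were seen. For ΔDL it was -0.98 at Lgals3 (interval -1.71 to -0.25) and -0.46 at Lgals1 (interval -1.06 to 0.14). The interval at Lgals3 leaves out 0 but covers counting error only. Between the KLF3 replicates, the log2 ratio of promoter to intron score at Lgals3 went from -1.77 to -0.42, a spread of 1.36 that is larger than the contrast, whereas at Lgals1 it differed by 0.10. On replicate scores, the ΔDL difference at Lgals3 intron 1 was -0.30 in place of 0.15, and the promoter has no ΔDL score. For DBD it was -1.37 at Lgals3 (interval -3.25 to 0.51) and -1.43 at Lgals1 (interval -2.91 to 0.05), and both intervals included 0.

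The same direction was common among other genes. Of 836 genes with KLF3-listed peaks in the promoter and in an intron, 68.9% had the lower ΔDL difference at the promoter, with a median contrast of -0.46, and 69.9% had the lower DBD difference there, with a median of -0.62. Lgals3 was above 31.3% of these genes for ΔDL and Lgals1 above 49.8%, and for DBD they were above 32.1% and 31.2%. Both galectin genes thus fell between the quartiles of the 836 genes, which were -1.16 and 0.14 for ΔDL and -1.73 and 0.25 for DBD.

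**Figure D4:**
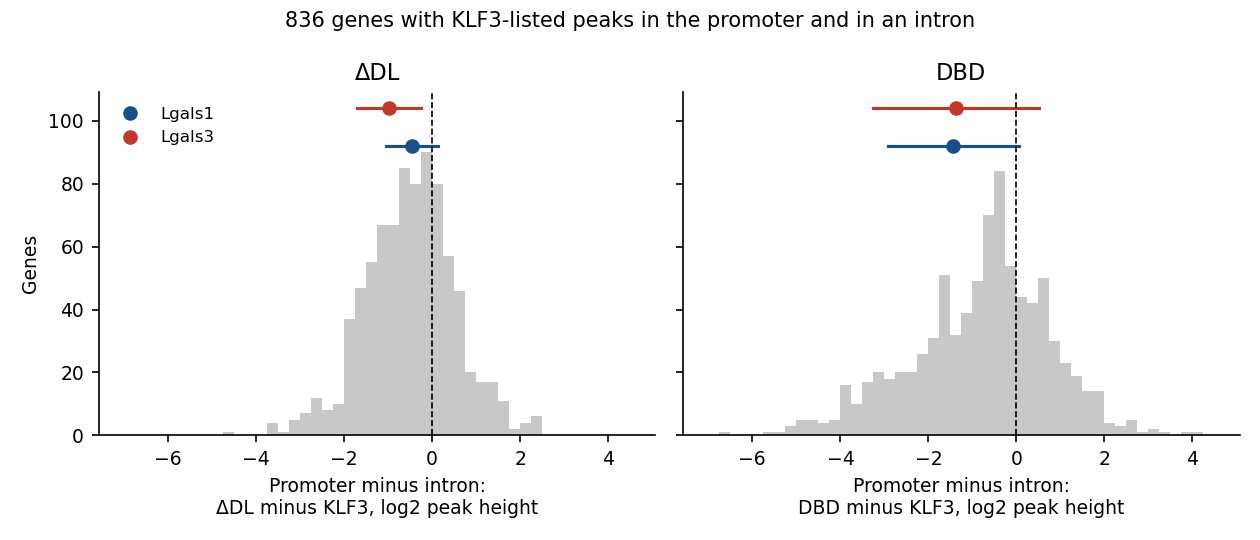
Difference from KLF3 at the promoter minus that in introns of the same gene, in log2 peak height, for ΔDL and DBD over 836 genes (grey bars, numbers of genes). Points with 95% counting intervals mark Lgals1 and Lgals3, which lie to the left of 0 for each mutant and within the bulk of the genes.

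Beyond these 6 peaks, the replicate lists held further peaks at the galectin genes that were not called in both replicates of a construct. At Lgals3, KLF3 replicate 1 alone called a site 1996 bp before the TSS with a score of 311.5. A site in intron 1 was called 4625 bp after the TSS by KLF3 replicate 1 with 219.9 and 4661 bp after it by ΔDL replicate 1 with 566.4, on 12 and 10 tags. ΔDL replicate 2 alone called sites 22674 bp before and 2785 bp after the TSS, with scores of 87.9 and 166.1. In all, 5 of the 14 peaks named to Lgals3 in the 6 lists were not in the table.

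At Lgals8 a pair of such peaks lay near the promoter. KLF3 replicate 2 called a peak in the 5' untranslated region, 232 bp after the TSS, with a score of 149.3, and ΔDL replicate 2 called one 58 bp after the TSS with 146.6. Each score was higher than that of the same list at the intron peak, which was 105.1 and 87.9. Neither peak is in the table, since neither construct had it in its other replicate.

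**Figure D5:**
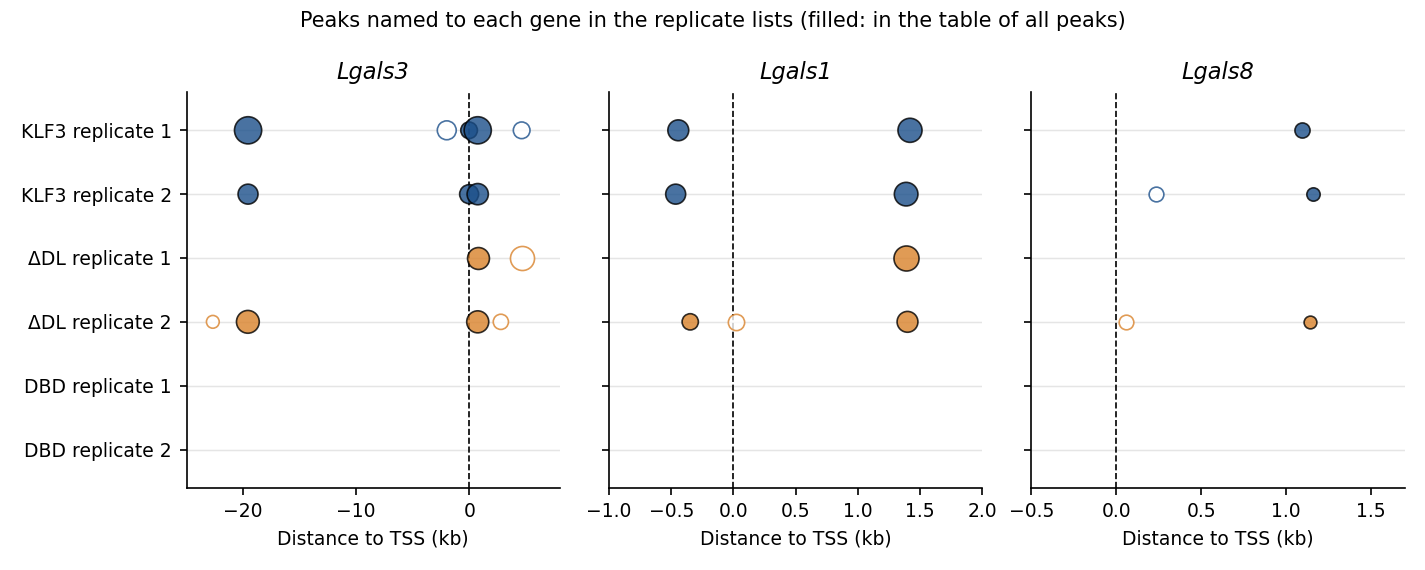
Peaks named to Lgals3, Lgals1 and Lgals8 in each of the 6 replicate lists, by distance to the TSS in kb, with larger circles for higher peak scores. Filled circles overlap a row of the table of all peaks and open circles do not; the DBD lists have no peak at any of the 3 genes, and each of the 3 genes has peaks that a single list called.

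No peak was found in or near Lgals9. The gene, at chr11:78776476-78798448 on the minus strand of mm9, had no peak in the 6 replicate lists within its body or 20 kb of it, and the table had no row there. Lgals3bp, at chr11:118254065-118263406 on the minus strand, had no peak within its body. KLF3 replicate 1 called a site 22516 bp after its TSS with a score of 183.2 on 10 tags, and KLF3 replicate 2 called another 5578 bp before it with 82.9 on 15 tags, inside the 3' untranslated region of a different gene. These are different sites, and neither was called in the other replicate. A height at Lgals9 or Lgals3bp was not analysed here, since the table gives heights only at listed peaks, so a lower level of occupancy was not detectable.

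The sequence of the galectin peaks varied in base composition and conservation. The G+C content was 68.3% at the Lgals3 promoter and 60.1% at the Lgals1 promoter, above 73.1% and 32.4% of the KLF3-listed promoter peaks. It was 59.6% at Lgals1 intron 2, 51.9% at the upstream peak, 51.1% at Lgals3 intron 1 and 45.1% at Lgals8 intron 1. The authors' mean PhastCons score, which runs from 0 to 1, was 0.36 at Lgals1 intron 2, 0.27 at the Lgals1 promoter, 0.19 at the upstream peak, 0.08 at the Lgals3 promoter and 0.03 at Lgals3 intron 1, and it was 0 at Lgals8 intron 1. The median over all KLF3 peaks was 0.14, so that both Lgals1 peaks were above it and the Lgals3 promoter and intron were below it.

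Other galectin genes were counted as well. Of 7 further genes, 3 had rows, and Lgals4, Lgals6, Lgals12 and Grifin had none. Whether the annotation used for the peaks holds each of these 4 names was not checked. The 3 genes with rows had 7 peaks in all. Lgals2, a neighbour of Lgals1 on chromosome 15, had the highest of them, an intron 2 peak with 613 normalized tags (KLF3), 644 (ΔDL) and 79.9 (DBD). The other peak of Lgals2, 1687 bp before the TSS, had 231, 207 and 32.7. Lgals7, known for its expression in stratified epithelia, had a peak in exon 4 with 263, 220 and 68.1. The galectin-related gene 1110067D22Rik had 4 peaks. Its promoter had 405, 142 and 46.5 normalized tags, which was -1.51 in ΔDL, and a peak 2636 bp before the TSS had 83.9, 224 and 119 and was listed for ΔDL and DBD but not for KLF3. In this list 1 of 7 peaks was at least 2-fold lower in ΔDL, 1 was at least 2-fold higher and 6 were at least 2-fold lower in DBD, with medians of -0.26 and -2.93. Over all peaks these shares were 14.8%, 28.8% and 52.6%. Of the 7 peaks, 6 were listed for KLF3. Among all KLF3-listed peaks, 23.3% were at least 2-fold lower in ΔDL and 79.2% in DBD.

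A further list held galectin partners, namely enzymes that build N-glycans, glycoproteins and receptors bound by galectins, and Calcoco2, an autophagy receptor that binds galectin-8. Of these 17 genes, 13 had rows, with 38 peaks, and Fn1, Havcr2, Calcoco2 and Mgat4a had none. In ΔDL 9 of the 38 were at least 2-fold lower and 9 at least 2-fold higher, beside 14.8% and 28.8% of all peaks. In DBD 24 were at least 2-fold lower and none was at least 2-fold higher, beside 52.6% and 3.27% of all peaks. Of the 38 peaks, 32 were listed for KLF3. Among all KLF3-listed peaks, 23.3% were at least 2-fold lower in ΔDL and 79.2% in DBD. The medians of the 38 peaks were -0.06 in ΔDL and -2.40 in DBD. The highest KLF3 peak was at the promoter of Itgb1, the β1 integrin subunit, with 843 normalized tags (KLF3), 247 (ΔDL) and 75.1 (DBD), or -1.77 and -3.49. The promoter of Mgat1, which starts the synthesis of complex N-glycans, followed with 704, 190 and 38.6, or -1.89 and -4.19. Mgat5, which adds the N-glycan branch favoured by galectin-3, had 7 peaks, of which 4 were listed for all 3 constructs. The highest of these, 72762 bp before the TSS, had 280 normalized tags (KLF3), 537 (ΔDL) and 383 (DBD). Its differences from KLF3 were 0.94 in ΔDL and 0.45 in DBD. They lay near the gaps between medians over the 2334 peaks listed for all 3 constructs. Setting those medians equal moved ΔDL by -1.06 and DBD by -0.42.

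The genes most like Lgals3 in their profile were sought among 866 genes with a promoter peak and at least 2 other peaks, by the Euclidean distance over the mean log2 heights of the promoter and of the other peaks with the 3 constructs. The nearest were Strn3 at 1.21, D5Ertd579e at 1.27, Amn1 at 1.31, Tfap4 at 1.31 and Fabp5 at 1.31, where the median distance was 3.18. Of these, Fabp5 came closest in the promoter values, with log2 heights of 8.23 for KLF3, 7.70 for ΔDL and 4.21 for DBD beside 8.69, 7.86 and 4.31 at Lgals3. Its other peaks were less alike, as their mean difference from KLF3 was 1.18 in ΔDL and -1.35 in DBD, against 0.09 and -3.02 at Lgals3. At Strn3 the promoter differed less between KLF3 and ΔDL, by -0.12 against -0.83 at Lgals3. The likeness covers 6 values with no replicates.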

How the data were processed

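ChIP-seq of V5-tagged KLF3, ΔDL and DBD in Klf3-/- MEFs was analysed from the deposited table of all peaks, 6 replicate peak lists and the merged KLF3 list. Each record covers 2 replicates of a construct, and the list names give the replicate. The merged ΔDL and DBD lists were not used, and the input libraries entered only through peak calling. No column gave per-sample values outside these groups (0 such columns).

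Reads were aligned to mm9 by the authors with Bowtie2 2.0.0 and SAMtools 0.1.18 after FastQC 0.10.1, and peaks were called on each replicate against its input with HOMER 4.1, per the labels and the study's methods. The deposited peak scores are a signal, which is the authors' count of tags at the peak, scaled to 100 M tags. The deposited heights are log2 values of tags in 400 bp with both replicates combined, normalized by the authors to the same total. The conservation value is a fraction, the mean PhastCons score deposited by the authors.

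Scores were whole multiples of 1 tag (100% within 0.05 tags), which gave the depth of each list in counted tags, not in mapped reads. The combined depth was 23.3 M tags (KLF3), 11.8 M (ΔDL) and 16.0 M (DBD), so that 1 tag is 4.29, 8.45 and 6.23 normalized tags, respectively. The heights carry a random part of 1 tag: of 10820 intervals present in the merged list and the table, 63.2% differed in height, by a median of 0.32 tags. Intervals on heights are exact Poisson intervals and those on differences exact conditional binomial intervals at 95%. The interval on the promoter contrast is a normal approximation on log counts. PCR copies are not independent molecules, so these cover counting error only. Peaks overlapped with at least 1 bp in common. Letters were read from the mm9 genome, where G+C content equalled the authors' value at 10818 of 10820 intervals. Gene bodies are from GENCODE on mm9, and TSS distances are the authors'.

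No test was made, since the heights hold a single combined value per construct; called means past 2-fold. The members and lists were chosen with earlier results of these data known. Named peaks were every promoter peak, the highest KLF3 peak of each gene and the lowest and highest difference in each mutant, and the remaining member peak is also given. Alternatives were the scaling, 10 normalized tags added, summed tags, 1.5-fold, a KLF3 height of at least 8, peaks within 20 kb of the TSS, replicate scores, each replicate list alone, and the windows for letters. Tags without the random part, overlap with both replicate lists, the left flank, the contrast of promoter and intron and the ratios of scores within a replicate were added after seeing the data. Overlap, letter, depth and interval code returned the known answers on simulated data. Python 3.11.15, numpy 2.4.6, pandas 2.3.3 and scipy 1.17.1 were used.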

Additional observations from a re-analysis of the deposited data

How the results depend on the processing

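Of 105 values recomputed under alternatives, 11 were set aside as unable to move, since all 6 peaks lie within 20 kb of the TSS and a shift of a construct leaves the distances between genes as they were. Of the other 94, 81 stayed within the counting interval of the reported value, or within 1.5 times of a reported count. Some of these were fixed in advance too, so their number does not measure how firm the results are. For example, peaks called in both KLF3 lists stay listed without either list, and a looser fold limit cannot lower a count. No difference past 2-fold changed sign, but ΔDL differences within 2-fold did. With equal medians, Lgals3 upstream went from 0.03 to -1.03 and Lgals3 intron 1 from 0.15 to -0.91. With summed tags, the Lgals3 median was -0.10. When the medians of the peaks listed for all 3 constructs were set equal, 5 member peaks in place of 0 were at least 2-fold lower in ΔDL, and the median ΔDL difference became -1.45 at Lgals1 (from -0.39), -1.03 at Lgals3 (from 0.03) and -1.39 at Lgals8 (from -0.33). With a limit of 1.5-fold, 2 peaks were lower in ΔDL. Counts in DBD stayed at 6 lower and 0 higher under every alternative run, except that 5 peaks had a KLF3 height of at least 8. Leaving out a replicate list, the peaks listed for ΔDL ranged from 2 (without replicate 2) to 5 (without replicate 1), and stayed at 6 for KLF3 and 0 for DBD. From replicate scores, the ΔDL difference at Lgals3 intron 1 was -0.30 in place of 0.15. An overlap of 200 bp with both replicate lists was not run, since the widest called peak has 143 bp. The combined heights could not be recomputed without a replicate. Replicates that share a number could be set side by side at 2 peaks, where the log2 ratio of ΔDL to KLF3 scores was 0.13 and -0.44 (replicates 1 and 2) at Lgals1 intron 2 and -0.73 and 0.13 at Lgals3 intron 1; the sources do not say that a shared number pairs them, and no block was fitted, since no result comes from a test.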
